A study of Mus musculus with 16 samples.

Results

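Enterochromaffin (EC) cells can be found both in the crypts and on the villi of the small intestine, and the genes described here are those that set them apart from other epithelial cells by a similar amount at both sites. A gene was counted as site-independent when it met 4 conditions. It differed between all EC and all other epithelial (epi) libraries with site as a covariate (limma, adjusted p below 0.05), the lowest of the 8 values in the higher cell type lay above the highest of the 8 values in the other, the fold was at least 1 log2 unit in the same direction at each site, and the folds of both sites lay within 1 log2 unit of each other. Of 14089 genes tested, 920 met them, 712 higher and 208 lower in EC cells. The values that chose these genes are the ones given below, so the size of a fold here is a description and not further evidence for it.

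The material was the whole small intestine of untreated Tph1-CFP mice aged 8 to 16 weeks, in which a cyan fluorescent protein (CFP) reports the gene of the serotonin-making enzyme Tph1. Crypt and villus epithelium were taken apart separately and sorted by fluorescence into CFP+ EC cells and CFP- epithelial cells, which gave EC and epi groups for either site, with 4 libraries in each of the 4 groups. All 4 groups carry the reporter, each library pooled 5000 cells, and the epi groups are mixtures of the other epithelial types and can include endocrine cells without CFP. The stated group size is 4 mice or samples, and where libraries of a group do not come from separate mice the p-values measure only a spread that may be technical. Values are the deposited FPKM (fragment counts corrected for transcript length and for the size of the library), and folds are differences of mean log2(FPKM + 1), which understates the change of low genes.

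EC cells are the endocrine cells that make most of the serotonin of the body. They load it into secretory vesicles with chromogranins and peptides and release it when calcium enters after a chemical, mechanical or hormonal stimulus. They arise from crypt progenitors through a series of endocrine transcription factors and then move up the villus, where they sit among absorptive cells, goblet cells and tuft cells.

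The labels were checked first. The sorting gene Tph1 lay between 3678 and 17178 in the 8 EC libraries and between 0.733 and 87.2 in the epi libraries. The epithelial gene Epcam was at 566 or more in all 16 libraries, and the leukocyte gene Ptprc reached 1.24 in EC and 24.6 in epi. The endothelial gene Pecam1, which some leukocytes also express, reached 33.0 in EC and 23.1 in epi. Stromal and endothelial markers summed to 155 to 236 in crypt EC and 7.12 to 9.997 in crypt epi. In the villus they summed to 25.1 to 44.6 in EC and 9.63 to 167 in epi. The sums came from a part of the list, as 8 of 14 were below 1 in every crypt EC library and 11 in every crypt epi library. The stromal gene Col1a1 reached 0.676 in EC and 1.93 in epi. B, plasma and myeloid markers summed to 145 to 161 and 46.7 to 76.8 in crypt EC and epi. In villus EC and epi they summed to 30.0 to 48.4 and 53.5 to 81.7. Of these 15 markers, 8 were below 1 in every crypt EC library and 9 in every crypt epi library. The myeloid gene Csf1r reached 0.353 in EC and 0.443 in epi. The part of cells outside the epithelium in the results was not tested. Column totals ran from 731415 to 766491 in crypt EC, 1045160 to 1136983 in crypt epi, 805073 to 901567 in villus EC and 1190722 to 1415123 in villus epi, so a value is no fixed share of its library, and the depth in reads is unknown. Villus epi replicate 2 stood apart, with a mean correlation across genes of 0.812 to its group, where the other 3 had 0.923 to 0.926 and the other groups 0.971 to 0.985. Stress and immediate early genes moved with the cell type, and 17 of 20 tested were called higher in EC, against 33.4% of all genes tested. Their summed level was 2684 to 5295 in crypt EC, 1307 to 2669 in crypt epi, 6286 to 8359 in villus EC and 881 to 2336 in villus epi, and their part in the results below was not tested.

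The upstream sequences of 4 genes that carry the pattern are shown with one marker gene for comparison: the homeobox gene Nkx2-2 and the LIM-homeobox gene Lmx1a, both with a high EC level at each site, Afp with the largest fold, Guca2a among the largest falls, and the granin gene Chga. Each run is the 250 bases before the RefSeq start site, 5′ to 3′ on the gene's strand (GRCm38.p6, the build also called mm10). Capitals mark matches, on either strand, to CAGATG or CAGCTG (E-box variants bound by basic helix-loop-helix factors), TGACG (the core of the cyclic AMP response element TGACGTCA), GTTGCC (part of the X-box of RFX factors), GGACAG (part of the element of the neuronal repressor REST) or TATAAA. Lmx1a lies at chr1:167689308-167689557 on the + strand, Nkx2-2 at chr2:147186403-147186652 on the - strand, Afp at chr5:90490464-90490713 on the + strand, Guca2a at chr4:119637482-119637731 on the + strand and Chga at chr12:102554691-102554940 on the + strand.
Lmx1a: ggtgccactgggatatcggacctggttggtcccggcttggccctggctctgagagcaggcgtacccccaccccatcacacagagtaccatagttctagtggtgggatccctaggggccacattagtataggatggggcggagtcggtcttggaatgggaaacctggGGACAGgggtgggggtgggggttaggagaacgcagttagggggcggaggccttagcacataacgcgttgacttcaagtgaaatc
Nkx2-2: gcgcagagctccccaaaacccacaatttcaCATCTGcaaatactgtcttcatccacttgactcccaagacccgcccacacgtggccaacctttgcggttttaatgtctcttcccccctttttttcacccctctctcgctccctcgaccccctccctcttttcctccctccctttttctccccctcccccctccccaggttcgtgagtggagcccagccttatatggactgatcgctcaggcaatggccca
Afp: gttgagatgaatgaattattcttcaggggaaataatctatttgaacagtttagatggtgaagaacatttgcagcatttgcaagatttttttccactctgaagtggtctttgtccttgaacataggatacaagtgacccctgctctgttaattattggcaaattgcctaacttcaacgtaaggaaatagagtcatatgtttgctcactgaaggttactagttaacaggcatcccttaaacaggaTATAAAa
Guca2a: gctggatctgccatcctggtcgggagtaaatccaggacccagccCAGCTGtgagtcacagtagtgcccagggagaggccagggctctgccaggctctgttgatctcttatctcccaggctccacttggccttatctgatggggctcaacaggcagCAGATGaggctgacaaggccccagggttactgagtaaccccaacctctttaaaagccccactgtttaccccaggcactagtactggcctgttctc
Chga: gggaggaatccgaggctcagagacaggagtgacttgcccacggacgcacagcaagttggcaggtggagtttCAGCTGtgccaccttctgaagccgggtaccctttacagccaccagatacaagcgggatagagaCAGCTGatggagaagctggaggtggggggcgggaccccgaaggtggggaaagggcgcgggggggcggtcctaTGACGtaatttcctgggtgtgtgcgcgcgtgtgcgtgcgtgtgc

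The share of windows with each motif is a description, with no test of a difference between the sets. A RefSeq window was found for 10355 of the 14089 genes, 516 of the 712 higher and 162 of the 208 lower genes, and a gene can have several. CAGATG was in 8.53% of the 692 windows of higher genes, 13.5% of the 208 windows of lower genes and 10.1% of all 13242. CAGCTG was in 12.6%, 13.0% and 12%, and TGACG in 22.7%, 19.7% and 25.3%, with the full TGACGTCA in 2.46%, 2.88% and 2.58%. GTTGCC was in 12.3%, 9.13% and 10.3%, GGACAG in 20.8%, 19.7% and 19.4%, and TATAAA in 5.49%, 6.73% and 7.14%. Windows of higher, lower and all genes had a median GC content of 59.8%, 57.2% and 59.2%, and the ratio of observed to expected CpG was 0.648, 0.56 and 0.695. Higher genes spanned a median of 24.8 kb and lower genes 22.2 kb, against 21.1 kb for all genes tested.

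Across the epithelium, the difference between EC and other cells was broad. With site as a covariate, 4701 genes (33.4% of those tested) were higher and 2986 (21.2%) lower in EC cells by limma with Benjamini-Hochberg adjustment. The groups did not overlap for 2006 genes with EC above (14.2%) and 1049 with EC below (7.45%). Site-independent genes made up 5.05% (higher) and 1.48% (lower) of all tested. The counts given for gene lists are to be read against these shares. Higher calls were 61.2% of all calls as deposited, 82.9% when each library was scaled to the same total and 49.8% with median-ratio scaling, and the median fold of all genes was 0.21, 0.69 and 0.02 log2 units under these. All 712 higher genes were called in the same direction under either scaling, as were all 208 lower genes with median-ratio scaling and 207 with scaling to the same total. These genes were chosen for no overlap and a fold of at least 1 at each site, so this largely follows from the choice. Which genes were site-independent did depend on the scaling. Scaled to the same total, 696 of the higher and 75 of the lower genes stayed so, and with median-ratio scaling 577 and 190.

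Summed over the set, the higher site-independent genes held a share of the EC total that differed between sites by less than its SD. The 712 higher genes made up 4.49% ± 0.219 of the column total in crypt EC and 4.53% ± 0.192 in villus EC (SD, n = 4 each), against 0.50% ± 0.0157 in crypt epi and 0.387% ± 0.0111 in villus epi. The 208 lower genes made up 1.66% ± 0.111 in crypt EC and 1.4% ± 0.0263 in villus EC, against 5.49% ± 0.248 and 4.96% ± 0.127 in epi. Genes were chosen for no overlap, so it largely follows from the choice that no library reached the range of the other cell type. They were also chosen for folds within 1 log2 unit of each other, so the like EC shares at both sites may partly follow from the choice too. The median fold of the higher genes was 1.96 log2 units (1.84 in the crypt and 2.12 in the villus), with 172 at 3 or more and 36 at 5 or more. For the lower genes it was -1.72 (-1.52 in the crypt and -1.98 in the villus), with 21 at -3 or beyond and 7 at -5 or beyond.

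**Figure D1:**
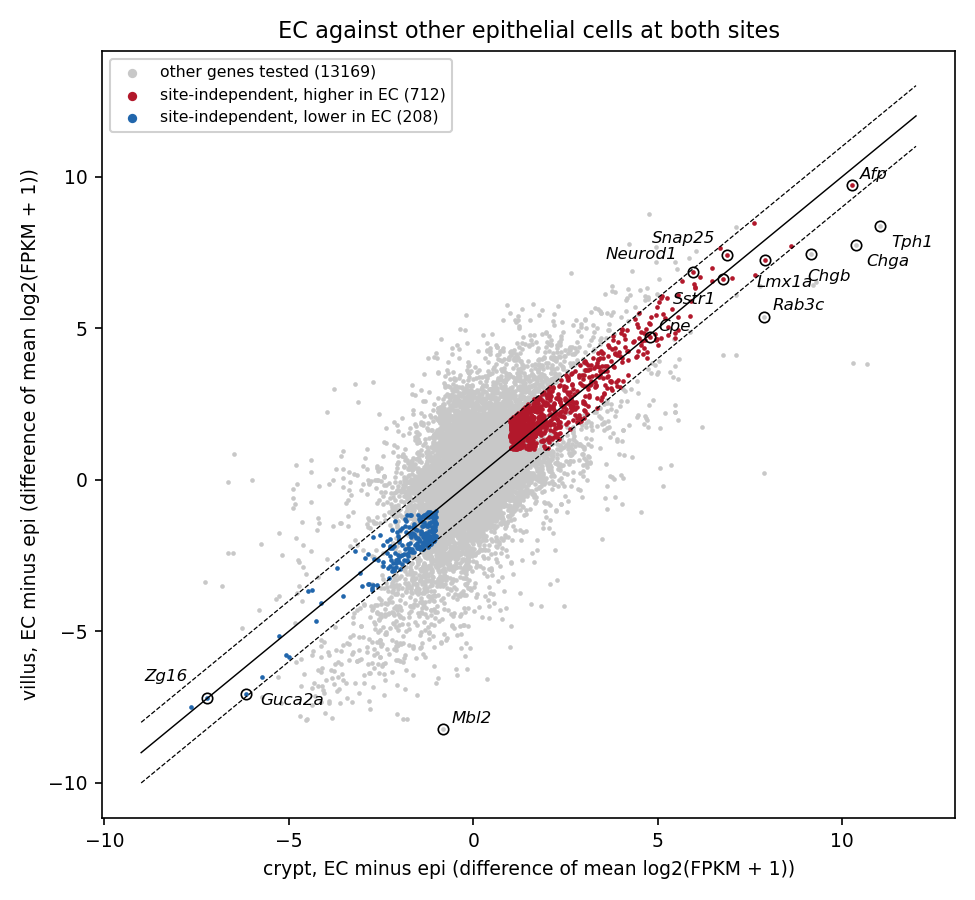
Each point is 1 of the 14089 genes tested, by its EC minus epi fold in the crypt (x) and in the villus (y), both as differences of mean log2(FPKM + 1) over 4 libraries per group. The solid line marks equal folds and the dashed lines a difference of 1. The 712 higher and 208 lower site-independent genes lie between the dashed lines by construction, and Tph1, Chga and Chgb lie outside them.

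A similar point estimate is not the same as a fold shown to be equal. The 95% interval of the difference between the villus and the crypt fold lay within 1 log2 unit of 0 for 277 of the higher and 68 of the lower genes. It ran past 1 for the rest, among them Snap25 (-0.40 to 1.48), Pcsk1 (-0.66 to 1.28), Resp18 (-1.14 to 0.43) and Nmu (-1.71 to 0.88). The difference was called for 148 of the higher and 46 of the lower genes, against 6050 of all genes tested (42.9%). The condition used the size of this difference, so nothing is read from these shares.

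The markers that define EC cells were themselves not site-independent by fold. Tph1 was higher in EC by 11.04 log2 units in the crypt and 8.36 in the villus (difference -2.67, 95% interval -3.59 to -1.75, adjusted p = 0.00014). Chga and Chgb encode chromogranins, acidic proteins that condense the content of secretory granules. The Chga fold was 10.36 in the crypt and 7.74 in the villus, a difference of -2.62 (-3.18 to -2.07). For Chgb the folds were 9.16 and 7.44, a difference of -1.72 (-2.38 to -1.07). All 3 had no overlap between EC and epi.

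For both chromogranins the fold differed mostly through the epi side. Chga stood at 16042 ± 591 in crypt EC and 14338 ± 1323 in villus EC (SD, n = 4 each), a change of -0.17 log2 units, while it went from 11.3 ± 2.11 in crypt epi to 68.4 ± 22.2 in villus epi, a change of 2.46. Chgb changed by -0.35 in EC and 1.38 in epi. Tph1 rose with site in both cell types, by 1.53 in EC and by 4.20 in epi, from 1.57 ± 0.563 to 50.3 ± 26.8. In bulk samples fewer cells of a type and less RNA per cell cannot be told apart.

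The same split was made for every gene with no overlap, a fold of at least 1 at each site and EC above. Of these 1194 genes, 712 had folds within 1 of each other, 383 had a villus fold larger by over 1 and 99 a crypt fold larger by over 1. In the 99, EC levels were lower in the villus by a median of 1.35 log2 units and epi levels higher by 0.12. In the 383, EC levels were higher in the villus by a median of 0.65 and epi levels lower by 0.99. Of the 712, 644 had EC levels within 1 log2 unit between sites. Among the 594 genes with EC below, 208 had similar folds, 369 had the larger fall in the villus, where epi levels were higher by a median of 1.64 and EC levels changed by -0.38, and 17 had the larger fall in the crypt.

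**Figure D2:**
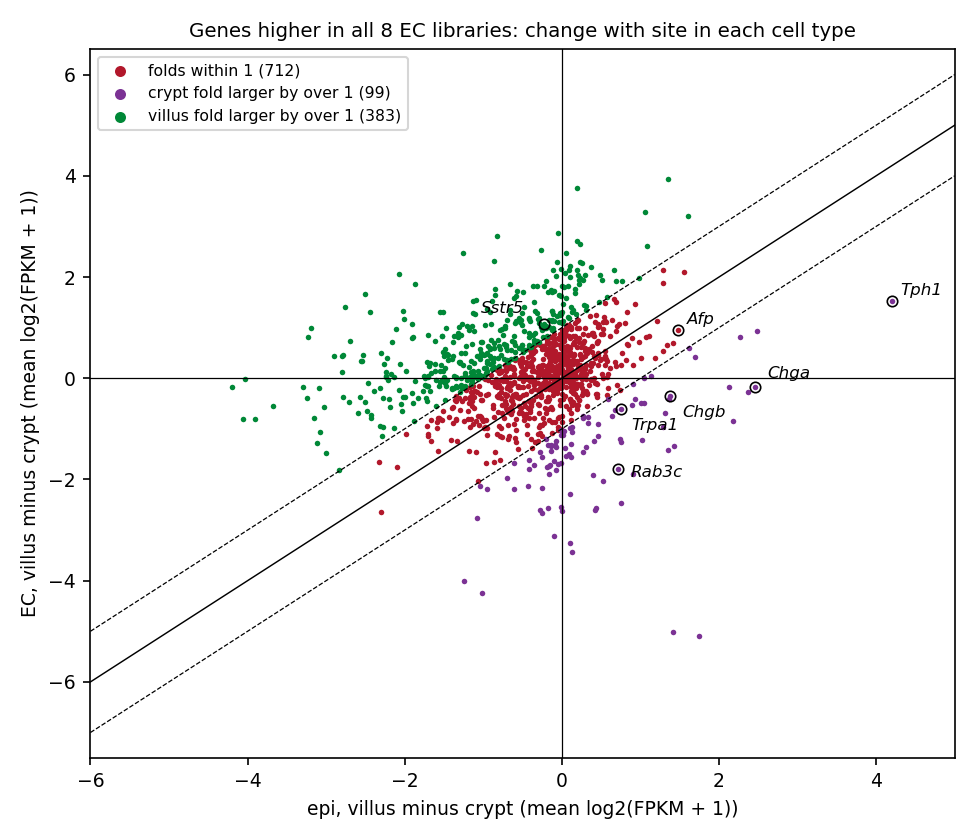
Each point is 1 of the 1194 genes with all EC values above all epi values and a fold of at least 1 at each site, by its change from crypt to villus in epi (x) and in EC (y), in log2(FPKM + 1). Site-independent genes (712) lie between the dashed lines, Chga and Chgb lie to the right near the horizontal line at 0, and Rab3c lies below it.

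Values on either side of the limit were close. The crystallin gene Cryba2 was counted with a difference of 0.9996 (folds 4.49 and 5.49), while Plk5, a kinase gene, had 3.81 and 4.81 and lay just beyond it. Folds were also ranked by their difference among genes without overlap and with a mean of 5 or more, leaving out unnamed gene models. Mbl2, which encodes a mannose-binding lectin, differed most there, at -0.82 in the crypt and -8.23 in the villus.

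Transcription factors of the endocrine lineage were often site-independent. Of 25 tested, 20 were called higher and 1 lower in EC, 17 had no overlap and 13 were site-independent, with a median fold of 2.58 against 0.21 over all genes. Lmx1a, a LIM-homeobox factor that acts in EC cells downstream of Nkx2-2 and promotes Tph1 expression, ranged from 337 to 463 in the 8 EC libraries with a median of 403. In epi it ranged from 0.385 to 2.88 with a median of 0.970, and its fold was 7.57 ± 0.15 (SE, adjusted p = 3.01e-15), 7.90 in the crypt and 7.24 in the villus. The EC values lay close together at both sites and far above every epi library.

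Neurod1, a basic helix-loop-helix factor of endocrine differentiation, lay between 199 and 762 in EC (median 396) and between 1.21 and 5.80 in epi (median 3.84). Its fold was 6.41 ± 0.19 (adjusted p = 1.38e-13). The crypt EC values were the lower ones, and the level rose by 1.56 with site in EC and by 0.66 in epi, so that the fold stayed within the limit. Nkx2-2 went the other way, at 36.3 to 119 in EC (median 75.8) and 0.185 to 2.30 in epi (median 0.682), with a fold of 5.24 ± 0.16 and a level lower in the villus by 1.47 in EC and by 0.85 in epi. Rfx6, a winged-helix factor upstream of several endocrine programmes, had 56.3 to 186 in EC (median 121) and 0.599 to 5.98 in epi (median 2.34), a fold of 4.77 ± 0.19, and was also lower in the villus in EC (-1.45) and in epi (-1.09). Folds within the limit of each other therefore went with different EC levels in these 3 genes, but the folds were not shown to be alike. For Neurod1 they were 5.96 in the crypt and 6.86 in the villus. Their difference of 0.90 (interval 0.28 to 1.52) was called (limma, adjusted p = 0.021). The intervals of the fold difference for Nkx2-2 (-1.15 to -0.08) and Rfx6 (-1.12 to 0.41) ran past the limit as well.

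The zinc finger genes Myt1 and Insm1, the homeobox gene Pax6 and the corepressor gene Runx1t1 were members at lower levels. Myt1 was at 38.5 to 74.9 in EC and 0.109 to 2.35 in epi (fold 5.09), and Insm1 at 4.71 to 13.3 and 0.0851 to 0.873 (2.83). Pax6 stood at 16.6 to 27.1 and 1.03 to 6.53 (2.58), and Runx1t1 at 19.5 to 27.7 and 0.243 to 4.74, with folds of 3.40 and 3.39 at the crypt and the villus. Fev, which also marks serotonin neurons, had a wide EC range, 14.0 to 188 against 0 to 1.67 in epi, and the interval of its fold difference (-2.21 to 1.61) was too wide to call its folds alike. Isl1, a LIM-homeobox factor of other endocrine types, was the member of the list called lower, at 0.480 to 1.94 in EC and 0.835 to 8.50 in epi (fold -1.08, adjusted p = 0.00672), and its groups overlapped.

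Serotonin handling had 1 site-independent gene. Of 9 genes tested, 8 were called higher and 0 lower, 6 had no overlap, and the median fold was 2.73. Slc18a1, the vesicular monoamine transporter that loads serotonin into granules, was at 697 to 1221 in EC (median 942) and 16.7 to 57.6 in epi (median 24.0), a fold of 5.08 ± 0.15 (adjusted p = 1.87e-13). Its folds were 5.47 and 4.69, and their difference of -0.78 was called (adjusted p = 0.01). Ddc, the decarboxylase that makes serotonin from 5-hydroxytryptophan, had no overlap (328 to 1055 in EC and 68.6 to 275 in epi) but folds of 3.59 in the crypt and 0.52 in the villus.

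Granule protein genes other than the chromogranins included several members. Of 15 genes in the list tested, chromogranins included, 13 were called higher and 0 lower, 12 had no overlap and 8 were site-independent (median fold 5.30). Resp18, a granule protein of endocrine cells, ranged from 658 to 1377 in EC (median 866) and from 3.64 to 14.7 in epi (median 6.80), with a fold of 6.84 ± 0.19 (adjusted p = 9.06e-14). Scg5, a chaperone of prohormone convertase, ranged from 451 to 1009 (median 707) against 3.87 to 13.7 (median 9.04), a fold of 6.17 ± 0.17. Ptprn, a phosphatase-like protein of the granule membrane, was at 43.9 to 118 against 0.106 to 0.728 (5.82), and Pcsk1n, which encodes an inhibitor of Pcsk1, at 16.4 to 40.8 against 0.144 to 0.813 (4.39). Scg3, a secretogranin gene, had folds of 4.75 and 6.02 and lay outside the limit.

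Enzymes that cut and trim prohormones followed. Of 9 tested, 8 were called higher and 0 lower, 6 had no overlap and 3 were site-independent. Pcsk1, the prohormone convertase, had a narrow EC range, 474 to 576 with a median of 504, against 1.63 to 9.07 in epi (median 7.36), and a fold of 6.16 ± 0.23 (adjusted p = 1.94e-12). Cpe, the carboxypeptidase that removes basic residues after the cut, was at 1069 to 1341 in EC (median 1179) and 22.9 to 74.0 in epi (median 48.2). Its folds were 4.78 and 4.71, with a difference of -0.08 (95% interval -0.98 to 0.82). The protease gene Ctsl had folds of 3.39 and 3.98.

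Most vesicle docking and fusion genes were higher in EC, with 20 of 24 called higher, 1 lower, 18 without overlap and 10 site-independent (median fold 2.99). Snap25, a SNARE protein of the plasma membrane, was at 173 to 735 in EC (median 501) and 0.438 to 6.20 in epi (median 1.93). The villus EC libraries were the higher ones (1.47 above crypt EC), epi was higher in the villus too (0.93), and the fold was 7.14 ± 0.23 (adjusted p = 3.34e-13). Syt13, a synaptotagmin gene, had a fold of 6.12, the vesicle membrane gene Syp 5.33 and the priming factor gene Unc13a 4.26. Rab3c, a small GTPase of secretory vesicles, was an exception, at 7.88 in the crypt and 5.38 in the villus (difference -2.50, 95% interval -3.07 to -1.93), and here the change lay mainly in EC (-1.79) rather than in epi (0.71).

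**Figure D3:**
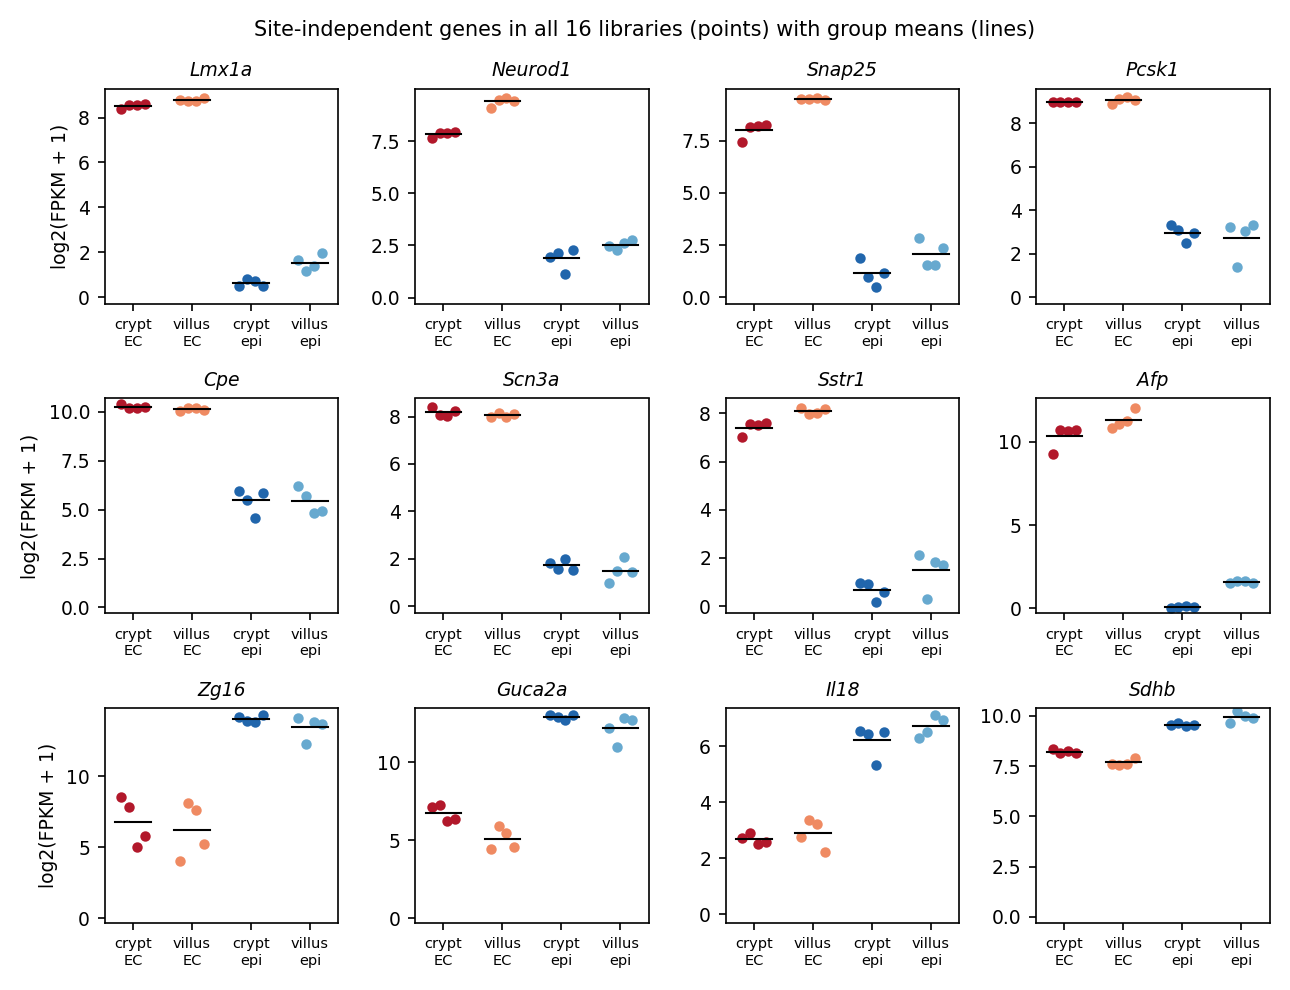
Levels of 8 higher and 4 lower site-independent genes in each of the 16 libraries, as log2(FPKM + 1), with points for libraries and lines for the means of the 4 groups. By the choice of the genes, the 8 EC points and the 8 epi points do not overlap in any panel. The EC means of Cpe, Pcsk1 and Scn3a are nearly level between sites while those of Neurod1 and Snap25 are higher in the villus.

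Several ion channel genes had nearly equal folds at both sites. Of 16 voltage-gated sodium and calcium channel genes tested, 14 were called higher and 1 lower, 9 had no overlap and 5 were site-independent (median 1.47). Scn3a, the pore-forming subunit of a sodium channel, was at 252 to 335 in EC (median 273) and 0.962 to 3.16 in epi (median 1.94), a fold of 6.51 ± 0.14 (adjusted p = 5.06e-15). The difference between its folds was 0.10 (-0.46 to 0.66), and EC levels changed by -0.13 with site. Cacna1h, a low-voltage-activated calcium channel, was at 17.2 to 24.7 in EC and 0.0981 to 0.518 in epi, with folds of 4.04 and 4.03 (interval of the difference -0.44 to 0.43). Scn2a, another sodium channel gene, had 10.7 to 15.4 against 0.00796 to 0.474 and folds of 3.62 and 3.58 (-0.52 to 0.44). Members were chosen with this difference in view, so the intervals describe its precision and are no test.

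Potassium and pacemaker channels had 14 of 17 called higher and 1 lower, with 7 higher and 1 lower site-independent gene (median 1.98). Kcnh2, a voltage-gated potassium channel, was low but separate, at 4.45 to 10.3 in EC and 0 to 0.858 in epi, with folds of 2.59 and 2.60. Sensory and ligand-gated channels were mixed, with 7 of 14 called higher and 2 lower, and 3 higher and 2 lower site-independent genes. Trpc4, a cation channel, rose by 4.56 (13.1 to 45.3 in EC and 0 to 0.713 in epi). Trpm4, a cation channel opened by calcium, fell by 1.66 on the log2 scale (21.5 to 30.3 in EC and 52.0 to 212 in epi). Trpa1, the irritant receptor, had no overlap, but its folds of 7.77 and 6.40 differed by -1.37 (adjusted p = 0.00022).

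In the list of G protein-coupled receptors of endocrine cells, 5 genes were site-independent (Sstr1, Npy1r, Gipr, Celsr3 and Gpr35). Of 17 genes tested, 11 were called higher and 3 lower, and 4 higher genes and 1 lower gene met all conditions. Sstr1, a receptor for the inhibitory peptide somatostatin, was at 127 to 297 in EC (median 220) and 0.119 to 3.36 in epi (median 0.908). Its fold was 6.68 ± 0.22 (adjusted p = 4.91e-13), 6.76 in the crypt and 6.61 in the villus, and the interval of the difference ran from -1.09 to 0.79. Sstr5, another somatostatin receptor, was at 37.1 to 106 in EC and 0.0752 to 2.54 in epi, with folds of 4.38 and 5.69 that differed by 1.31 (adjusted p = 0.011). The neuropeptide Y receptor gene Npy1r had folds of 4.09 and 4.78, and Gipr, the receptor gene of the incretin GIP, 3.00 and 2.31.

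Downstream of such receptors, 20 of 28 genes of G protein and cyclic AMP signalling were called higher and 3 lower, and 8 higher genes and 1 lower gene were site-independent (median 1.20). Gnao1, the alpha subunit of the G protein Go, was at 41.0 to 60.1 in EC (median 45.5) and 0.462 to 2.47 in epi (median 1.02), a fold of 4.49 ± 0.18. Rgs7, which speeds the shut-off of Go, was at 25.4 to 38.2 in EC and 0.0433 to 1.69 in epi, a fold of 4.47 ± 0.18. Of 15 peptide hormone genes, 7 were called higher, 2 lower and 1 was site-independent, near the share of all genes tested. That gene, Nmu, which encodes neuromedin U, was at 1.81 to 14.6 in EC and 0.0604 to 1.48 in epi (fold 2.79), with the lowest EC value in crypt EC replicate 1.

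Neuronal surface and cytoskeleton genes, 24 tested, had 19 called higher, 0 lower and 7 site-independent (median 1.68). Amigo2, a leucine-rich repeat adhesion protein, was at 462 to 807 in EC (median 587) and 0.400 to 1.84 in epi (median 1.09). Its fold of 8.17 ± 0.17 (adjusted p = 4.55e-15) came from 8.62 in the crypt and 7.72 in the villus. The adhesion gene Lrrn1 rose by 5.46, the axonal kinesin gene Kif1a by 4.08 and the neuronal tubulin gene Tubb3 by 2.47. Of 7 markers of enteric neurons and glia tested, 6 were called higher, and the list's summed level was 199 to 334 in crypt EC and 779 to 834 in villus EC against 2.22 to 16.2 in epi. Snap25 is in that list.

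Afp, a gene for a protein usually known from plasma, had the largest fold among the site-independent genes. Of 14 plasma-type genes tested, 11 were called higher, 1 lower and 4 site-independent (median 2.86). The product of Afp is alpha-fetoprotein, and its level ranged from 620 to 4120 in EC (median 1738) and from 0.0184 to 2.06 in epi (median 0.968). The fold was 9.997 ± 0.22 (adjusted p = 5.06e-15), 10.27 in the crypt and 9.73 in the villus, although the level was higher in the villus by 0.95 in EC and by 1.48 in epi. The interval of the Afp fold difference, -1.41 to 0.34, ran past the limit. Ambp, which encodes the precursor of alpha-1-microglobulin and bikunin, was at 169 to 1653 in EC and 0.164 to 7.65 in epi (fold 8.04 ± 0.32). Its EC level was higher in the villus by 2.15, and the interval of its fold difference, -0.44 to 2.17, was wide.

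Among genes outside the lists, Tpbg, a leucine-rich membrane glycoprotein, rose by 7.20 (215 to 485 in EC and 0.857 to 1.72 in epi) and Bex2 by 7.17 (526 to 702 against 0.782 to 5.21). The difference between the villus and the crypt fold was called for Tpbg (-0.86) and for Bex2 (0.98). Rpp25, a subunit of ribonuclease P, had folds of 5.91 and 5.90, and Anxa6, a calcium-dependent membrane-binding annexin, 4.57 and 4.59. The EC and epi levels of both were lower in the villus, by -0.99 and -0.99 for Rpp25 and by -0.67 and -0.69 for Anxa6. The tight junction gene Cldn4 rose by 3.79 (115 to 495 in EC and 3.79 to 82.7 in epi), with a wide interval of its fold difference (-0.95 to 2.57).

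**Figure D4:**
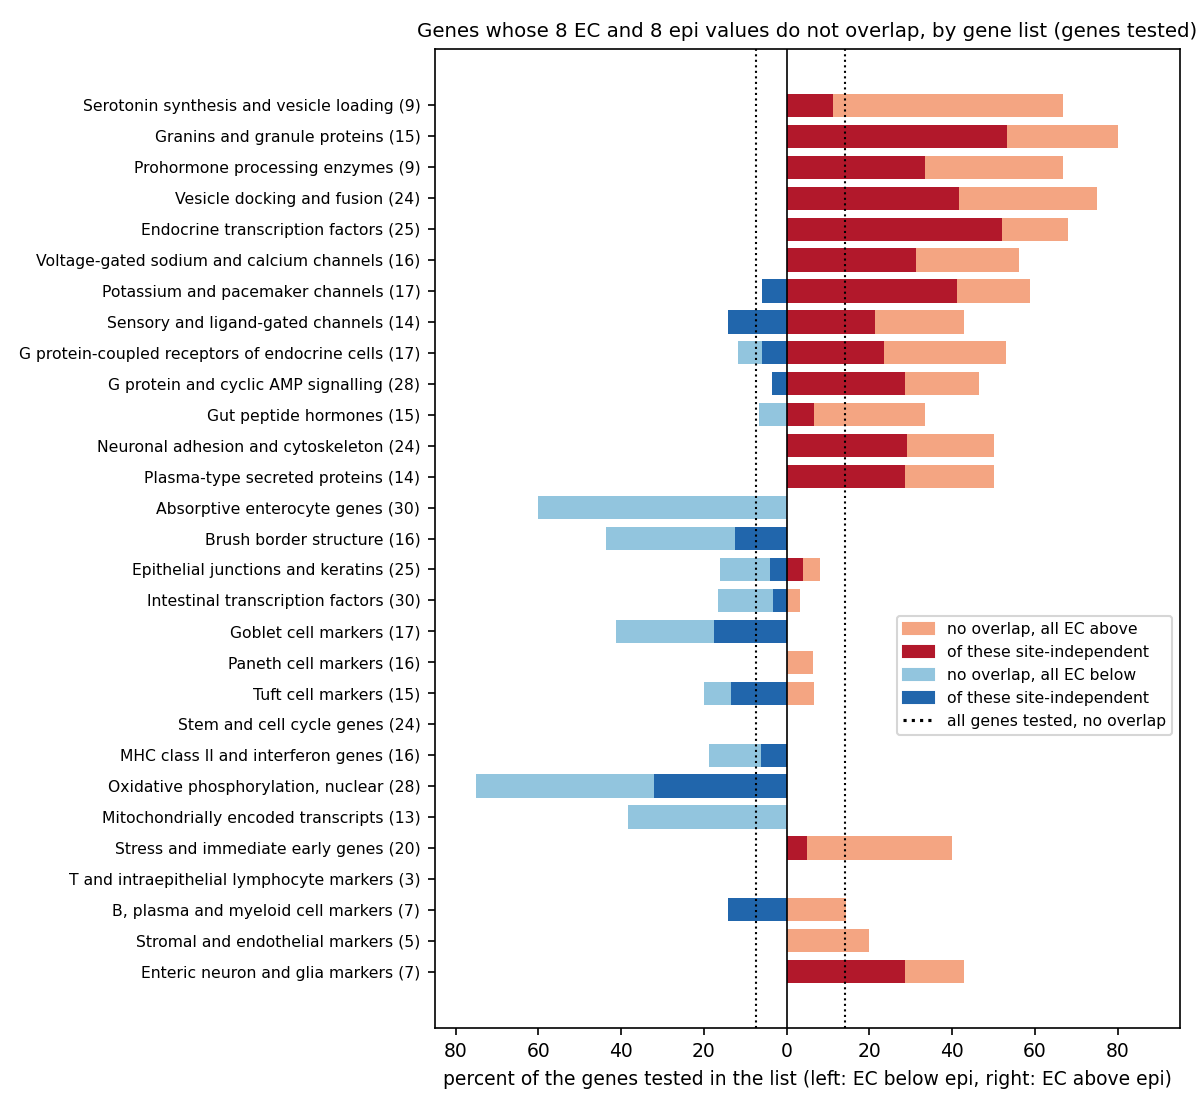
For each gene list, the percent of its tested genes (numbers in brackets) whose 8 EC and 8 epi values do not overlap, to the right with EC above and to the left with EC below, and in dark colour those that are site-independent. The dotted lines mark the same shares over all 14089 genes tested, 14.2% above and 7.45% below. Granule, docking and transcription factor lists reach far beyond the line on the right with many site-independent genes, while absorptive enterocyte genes reach beyond it on the left with none.

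On the lower side, absorptive enterocyte genes fell without any site-independent member. Of 30 tested, 28 were called lower and 0 higher and 18 had no overlap, and the median fold was -4.35, with -2.62 in the crypt and -5.78 in the villus. Brush border genes had 12 of 16 called lower and 2 site-independent. One was Myo1a, the motor that ties actin to the microvillus membrane, at 44.3 to 201 in EC (median 138) and 304 to 1246 in epi (median 425), with a fold of -2.29 ± 0.21 (adjusted p = 1.71e-07). Genes of bile acid and fatty acid handling were also among the lower members. Fabp6, the ileal bile acid binding protein, was at 3.46 to 14.2 in EC and 135 to 2189 in epi (-6.12). The interval of its fold difference, -2.84 to 1.27, was too wide to call its folds alike. Ppara, the nuclear receptor of fatty acid oxidation, was at 8.23 to 13.9 in EC and 25.3 to 56.4 in epi (-1.69).

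Goblet cell genes had the largest falls among the site-independent genes. Of 17 tested, 12 were called lower and 0 higher, and Clca1, Zg16 and Guca2a were site-independent. The median fold of the whole list was -4.19 in the crypt and -1.07 in the villus. Zg16, a lectin of goblet cell mucus, was at 15.7 to 373 in EC (median 124) and 4880 to 19760 in epi (median 14656), with a fold of -7.21 ± 0.59 (adjusted p = 3.12e-08). Clca1, a secreted mucus protease, was at 1.45 to 60.1 in EC (median 9.27) and 1009 to 3699 in epi (median 2499), a fold of -7.57 ± 0.61. EC libraries differed widely in both genes, and the intervals of the fold differences, -2.56 to 2.62 and -2.55 to 2.86, do not show the folds to be alike. Guca2a, the guanylin gene, which absorptive cells express as well, was at 20.6 to 154 in EC and 1965 to 8413 in epi (-6.62 ± 0.30). The interval of the Guca2a fold difference, -2.13 to 0.29, does not show its folds to be alike either. The list summed to 2737 to 3971 in crypt EC, 68270 to 82650 in crypt epi, 10775 to 14940 in villus EC and 21626 to 43303 in villus epi.

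Paneth cell genes were lower by site rather than throughout, with 12 of 16 called lower, 1 higher, 0 site-independent and a median fold of -4.51 in the crypt and -0.14 in the villus. Tuft cell genes had 8 of 15 called lower and 3 higher. In that list 2 genes were site-independent on the lower side, among them Sh2d6 (0 to 4.53 in EC and 4.63 to 57.8 in epi, fold -3.08). The interval of the Sh2d6 fold difference, -1.73 to 1.72, does not show its folds to be alike. Stem and cell cycle genes had 14 of 24 called lower and 0 without overlap. Defence genes among the members were Reg3a, an antimicrobial lectin (0.353 to 3.09 in EC and 70.2 to 123 in epi, fold -5.21), the epithelial cytokine gene Il18 (3.74 to 9.34 against 39.9 to 139, fold -3.68) and the interferon-induced gene Ifi27l2b (-3.13), the 1 such gene among 16 MHC class II and interferon genes, of which 13 were called lower. Of the markers of cells outside the epithelium, 0 of 3 tested for T and intraepithelial lymphocytes were called. For B, plasma and myeloid cells 2 of 7 were higher and 3 lower, and for stroma and endothelium 2 of 5 were higher. Over all genes tested 33.4% were called higher and 21.2% lower, so nothing is read from these small counts. Enzyme genes were Gsta1 (-5.43) and the membrane-bound carbonic anhydrase Car4 (-4.08). The intervals of their fold differences, -3.01 to 1.56 and -0.29 to 1.93, were too wide to call the folds alike. Clca, Reg3 and Gsta genes have near-identical relatives, so the split of reads among them is uncertain.

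Oxidative phosphorylation genes were lower in EC at both sites in many cases. Of 28 nuclear genes tested, 27 were called lower and 0 higher, 21 had no overlap and 9 were site-independent (median -1.11, -0.98 in the crypt and -1.28 in the villus). Without villus epi replicate 2, 12 were site-independent. Scaled to the same total, all lower site-independent genes numbered 84 rather than 208, and with median-ratio scaling 281. Those of this list were not counted under either scaling. Uqcrfs1, the Rieske iron-sulfur subunit of complex III, was at 153 to 179 in EC (median 162) and 450 to 853 in epi (median 584), with a fold of -1.87 ± 0.13 (adjusted p = 6.71e-09). Sdhb, the iron-sulfur subunit of complex II, was at 190 to 321 in EC and 729 to 1220 in epi (-1.81 ± 0.15), and Cyc1, cytochrome c1, at 195 to 424 and 802 to 1033 (-1.73 ± 0.13). For these 3 the fall was the larger one in the villus, by 0.84, 0.92 and 0.74 log2 units, and each of these differences was called. Mitochondrially encoded transcripts had 13 of 13 called lower, but 0 site-independent, and summed to 21911 to 31567 in crypt EC, 35078 to 43245 in crypt epi, 19369 to 22388 in villus EC and 62666 to 206727 in villus epi.

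Genes of general intestinal and epithelial identity were site-independent at shares near those of all genes tested (5.05% higher and 1.48% lower). Of 30 intestinal transcription factors, 3 were called higher and 14 lower, and Ppara was the 1 site-independent gene. Cdx2, the caudal homeobox factor of intestinal identity, was at 32.9 to 41.9 in EC and 4.26 to 63.0 in epi (fold 0.13, adjusted p = 0.788), and Hnf4a at 243 to 326 and 19.2 to 346 (0.90, adjusted p = 0.0679). Villus epi replicate 2 held the lowest value of both. Of 25 junction and keratin genes, 4 were called higher and 8 lower, or 3 and 14 without that library, and 1 higher and 1 lower gene were site-independent. The keratin gene Krt8 was at 1084 to 2550 in EC and 1024 to 2917 in epi (-0.46, adjusted p = 0.12). Vil1, which encodes the microvillus protein villin, and Epcam were called lower (-1.49 and -0.93) with overlapping groups.

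Leaving out a library changed the membership. Without villus epi replicate 2, 833 genes were higher and 284 lower, and these included 640 and 171 of the members. Without crypt EC replicate 1 the counts were 764 and 245, with 684 and 204 shared. Of the members, 520 higher and 142 lower genes were counted in every one of 16 fits that each left out 1 library.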

How the data were processed

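RNA was measured in 16 bulk libraries of sorted small intestinal cells, with 4 groups of 4. Per the labels, total RNA was extracted and full-length cDNA was amplified with a SMART-Seq HT kit and made into Nextera XT libraries. Per the submitters' processing notes, bcl2fastq 2.20, kallisto and sleuth were used with mouse build mm10. The deposited table holds FPKM for 20072 genes, and the scaling between libraries, the annotation release and the read depth were not given in the sources used here, so no counting interval or floor is given. No pair of columns was identical, and every column belongs to a sample of the series.

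The deposited values were taken unchanged and converted to log2(FPKM + 1). A gene was tested when 4 or more libraries had it at 1 or higher (14089, with 5983 left out). In R 4.3.3, limma 3.58.1 (lmFit, eBayes with trend) was fitted to all 16 libraries with cell type and site as terms. A fit of 4 group means gave the fold at each site, the difference of the folds and its 95% interval. Tests were two-sided, with Benjamini-Hochberg adjustment over all genes tested and calls at an adjusted p below 0.05. The fits were run on simulated data with the same EC effect at both sites and the same noise in every library. That does not test the limit on the folds where they differ between sites or where a library stands apart. Replicate numbers are those of the titles, and neither these nor the library numbers pair the samples, so no block was used.

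The site-independent genes, the 29 gene lists and the tests were chosen with earlier results of these data known. Named genes are a part, picked after the results were seen, of those a rule gave, and a few are not reported here. The rule looked at genes with a mean of 5 or more in the higher cell type. It took the 12 largest folds in each direction, the 8 with the most alike folds and up to 5 per list. It also took 3 on each side of the limit and the 6 without overlap whose folds differ most. Genes such as Tph1 and Cdx2 were taken whatever their values. Alternatives were the pseudocount, the filter, library scaling, array weights, a block by either number, other limits on the folds, and leaving out each library. Sequences are from RefSeq (GRCm38.p6). Python 3.11.15 with matplotlib 3.10.9 drew the figures.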

Additional observations from a re-analysis of the deposited data

Results flagged for a closer look

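Each named gene was looked at in each group for a library far from the other 3, measured as its gap to the nearest other library over the range of the group on the log2(FPKM + 1) scale. Of 316 combinations of gene or summary and group, 33 stood out, and chance flags about 1 in 20. Crypt EC replicate 1 held 14 of them, in each case below the other 3 libraries of its group. The gaps were 0.866 for Chgb, 0.913 for Slc18a1, 0.951 for Scg3, 0.866 for Snap25, 0.842 for Syt13, 0.867 for Sstr1, 0.988 for Npy1r, 0.849 for Nmu, 0.872 for Lrrn1, 0.976 for Afp, 0.949 for Ambp, 0.971 for Rpp25, 0.937 for Plk5 and 0.872 for Myo1a. Afp, for example, was at 620 in that library and at 1630 to 1670 in the other 3, and Npy1r at 9.49 against 25.5 to 25.7.

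Villus epi replicate 2 held 8 of the 33. It was below the other 3 libraries for Pcsk1 (0.855), Syp (0.893), Myo1a (0.897), Cdx2 (0.844), Hnf4a (0.921) and Vil1 (0.919), and above them for Insm1 (0.93) and Gsta1 (0.926). Crypt epi replicate 3 was low for Tph1 (0.876), Rfx6 (0.869), Gsta1 (0.941) and Il18 (0.898). Crypt epi replicate 1 was low for Cacna1h (0.971) and crypt epi replicate 4 high for Scn2a (0.942). Crypt EC replicate 4 was high for Cacna1h (0.925), and villus epi replicate 4 for Kcnh2 (0.888). Villus EC replicate 4 was above its group for Trpa1 (0.928), Plk5 (0.918) and Sdhb (0.858).

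Of 77 named genes, 28 had a called difference between the villus and the crypt fold (interaction contrast, limma, adjusted p below 0.05), and 15 of these were site-independent by the limit of 1. The difference, villus minus crypt in log2 units, was -2.67 for Tph1, -2.62 for Chga, -1.72 for Chgb, -3.06 for Ddc, -0.78 for Slc18a1, 0.55 for Ptprn, 1.27 for Scg3, 0.90 for Syt13, 0.94 for Unc13a and -2.50 for Rab3c. Among transcription factors it was -0.66 for Lmx1a, 0.90 for Neurod1, 0.91 for Insm1 and 2.12 for Hnf4a. It was 0.79 for Trpc4, -1.37 for Trpa1, 1.31 for Sstr5, -0.90 for Amigo2, -0.86 for Tpbg, 0.98 for Bex2 and 1.00 for Cryba2. For genes lower in EC it was -0.84 for Uqcrfs1, -0.92 for Sdhb, -0.74 for Cyc1, -7.40 for Mbl2, -1.71 for Vil1 and -0.56 for Epcam, and it was 1.37 for Krt8.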

How the results depend on the processing

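Scaled to the same total, 8250 genes were called higher and 1698 lower, 3607 and 496 had no overlap, and 1421 and 84 were site-independent, of which 696 and 75 were members. With median-ratio scaling, 600 and 281 were site-independent. Array weights gave 4492 lower calls. A pseudocount of 5 gave 454 higher site-independent genes, of which 347 were members. Folds within 0.5 gave 396 and 98, and an interval of the fold difference within 1 gave 277 and 68. Leaving out 1 library at a time gave 4267 to 5506 genes called higher, 2811 to 3548 lower, 2016 to 2531 and 1063 to 1448 without overlap, 699 to 833 and 196 to 284 site-independent, and 5475 to 8563 with a called fold difference. The highest values were those without villus epi replicate 2, and the lower site-independent genes numbered 245 without crypt EC replicate 1. Under both scalings and both pseudocounts, 242 higher and 47 lower genes stayed site-independent. Same-numbered samples did not deviate together. By title number the correlation was -0.27 to 0.17 over 24 pairs, and a replicate block by it gave 4413 and 2824 calls. By library number it was -0.27 to 0.14 over 10 pairs, and a replicate block by it gave 2461 and 1573 calls. Of the named genes, 3 that were not called changed sign. Cdx2 was at -0.0834 with median-ratio scaling, -0.36 with the replicate block by library number, -0.21 with array weights and -0.26 without villus epi replicate 2, and between -0.26 and 0.28 over the fits that left out 1 library. Hnf4a was at -0.0338 with array weights and Krt8 at 0.13 when scaled to the same total. The median of the junction and keratin list was 0.33 when scaled to the same total (-0.21 as deposited). The cause of these changes was not tested, and depth is unknown.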

Other observations

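Intraflagellar transport, BBSome and ciliary RFX genes, which build and maintain cilia, were higher in EC at both sites in many cases. This list and the next ones were chosen after their values were seen. Of 42 tested, 26 were called higher and 3 lower (limma, median fold 0.82), and 13 higher genes and 1 lower gene were site-independent, against 5.05% and 1.48% of all genes tested. Among them were Ift57 and Ift81 of the particle that moves cargo along the cilium, Bbs1, Bbs9 and Ttc8 of the BBSome, the kinesin subunits Kif3a and Kifap3, and the transcription factors Rfx2 and Rfx3. The lower gene was Mkks, which encodes a chaperonin-like protein of BBSome assembly.

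The vacuolar proton pump, which acidifies secretory vesicles, had 16 of 19 genes called higher and 1 lower (median 0.99), and 4 higher genes and 1 lower gene were site-independent. Citrate cycle and fatty acid oxidation genes went the other way, with 0 of 30 called higher, 24 lower and 9 site-independent (median -1.30). Among the 9 were Cs, Mdh2 and Suclg1 of the citrate cycle and Acadvl, Echs1 and Acaa2 of beta oxidation. The number of lower members depended on the scaling, and this list was not counted under another.

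Libraries differed in Y-linked transcripts within every group. Ddx3y, Eif2s3y and Uty were all above 10 in 7 libraries (in the crypt 1 EC and 1 epi, in the villus 3 EC and 2 epi), and all below 3 in the other 9. Of the 8 EC libraries 4 were in the former set, and of the 8 epi libraries 3. Crypt EC replicate 1 was the crypt EC library with these transcripts, with Ddx3y at 21.9 against 0.0883 to 0.172 in the other 3. Kdm5d, another Y-linked gene, was itself counted as higher in EC and site-independent, at 12.4 to 35.8 in EC and 2.13 to 10.8 in epi. Its level was 12.4 to 14.1 in the 3 crypt EC libraries in which Ddx3y was below 1. In villus EC replicate 4, where Ddx3y was at 0, Kdm5d was at 21.6. The Kdm5d values of EC libraries therefore did not follow the other Y-linked transcripts, and the cause was not tested.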
